A study of Mus musculus with 8 samples.

Results

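The epidermal connexin genes Gja1, Gjb2, Gjb5 and Gjb6 were followed in dorsal skin of mice in a contact dermatitis model. These 4 of the 18193 genes named by a single symbol in the platform annotation were measured by every probe set paired with their symbols, 9 of the 45101 probe sets in the table. A probe set is a group of short probes to a transcript. Gja1 had 6 probe sets, and Gjb2, Gjb5 and Gjb6 had 1 each. All 9 passed the filter on dim signals, which kept 24675 probe sets.

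Total RNA from frozen skin of Balb/c mice was hybridised to 8 Affymetrix arrays. In the DNCB+HY209 group (n = 3) the skin was treated for 15 days with DNCB, a hapten that sensitizes skin on contact, and a gel with 5% HY209, a compound known as a bile acid receptor agonist, was given over the last 7 days. The DNCB group (n = 3) received DNCB and vehicle over the same times. The sham group (n = 2) had neither DNCB nor HY209 by title and source name, although its protocol fields repeat the text of the DNCB model, which bears on every comparison against sham. Age, sex and pooling of the animals are not given in the sources used here, nor whether each array is a separate animal, so each p-value reflects only spread among these arrays, which may be technical.

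Connexins are membrane proteins. Rings of connexins form a hemichannel, and hemichannels of adjoining cells dock into a gap junction that passes ions and small metabolites between the cells. In epidermis connexin 43, the product of Gja1, is known as the broadly expressed connexin of the basal and spinous layers and is also made by fibroblasts and hair follicle cells. Connexin 26 (Gjb2) and connexin 30 (Gjb6) are known for low levels in resting interfollicular epidermis and higher levels in wounded and hyperproliferative human epidermis, and mutations of either cause human skin and hearing disorders. Connexin 31.1 (Gjb5) is known from the epidermis of rodents.

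The regions just before the start sites of the 4 genes are shown because Gjb2 and Gjb6, which lie next to each other among the protein-coding genes of chromosome 14, had nearly the same pattern across arrays, while Gja1 on chromosome 10 and Gjb5 on chromosome 4 had others. Each is the 250 bases before the RefSeq start (build GRCm38.p6), read 5′ to 3′ on the gene's strand. The positions are chr14:57104703-57104952 on the minus strand for Gjb2, chr14:57133612-57133861 on the minus strand for Gjb6, chr4:127358165-127358414 on the minus strand for Gjb5 and chr10:56377050-56377299 on the plus strand for Gja1. Capitals mark matches on either strand to any of 6 motifs, namely the AP-1 site TGANTCA, the GC box GGGCGG, the TATA box TATAAA, the CCAAT box CCAAT, the STAT site TTCNNNGAA and the E-box CACGTG.
Gjb2: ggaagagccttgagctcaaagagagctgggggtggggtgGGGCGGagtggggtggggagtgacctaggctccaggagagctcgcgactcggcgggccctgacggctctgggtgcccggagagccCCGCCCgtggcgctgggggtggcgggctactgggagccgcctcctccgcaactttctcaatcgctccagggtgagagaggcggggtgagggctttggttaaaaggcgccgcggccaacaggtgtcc
Gjb6: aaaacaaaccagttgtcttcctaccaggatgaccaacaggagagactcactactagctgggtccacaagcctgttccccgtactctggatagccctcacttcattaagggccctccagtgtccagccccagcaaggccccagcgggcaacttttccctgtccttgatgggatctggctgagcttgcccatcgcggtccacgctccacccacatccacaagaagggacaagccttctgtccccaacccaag
Gjb5: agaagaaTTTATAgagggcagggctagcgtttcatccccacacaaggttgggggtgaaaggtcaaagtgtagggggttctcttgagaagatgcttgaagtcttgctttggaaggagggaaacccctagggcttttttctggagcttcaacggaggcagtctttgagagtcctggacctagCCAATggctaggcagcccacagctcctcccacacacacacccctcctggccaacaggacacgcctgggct
Gja1: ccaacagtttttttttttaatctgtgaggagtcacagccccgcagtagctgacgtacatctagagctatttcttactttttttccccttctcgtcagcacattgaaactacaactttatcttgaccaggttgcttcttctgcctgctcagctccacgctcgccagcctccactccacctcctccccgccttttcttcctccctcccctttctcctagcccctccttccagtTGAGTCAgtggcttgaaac

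The window of Gjb2 held 2 GC boxes, 1 on each strand, and 32.9% of the windows of 27025 genes held at least 1. The window of Gja1 held 1 AP-1 site, TGAGTCA, at 19 to 13 bases before the start, and 6.87% of all windows held this motif. The window of Gjb5 held 1 CCAAT box (34.5% of all windows) and 1 TATA box match on the opposite strand (13.0% of all windows). In the window of Gjb6 none of these letters were found. The motif matches did not overlap. Gjb2 and Gjb6 differed in base composition, with 69.2% and 56.8% G or C and 18 and 5 CG dinucleotides, against a median of 52.0% and 6 over all windows.

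The arrays differed in ways that touch the values below. Spike-in controls of bacterial sequence averaged log2 signals of 10.65 to 11.59 in DNCB+HY209, 10.10 to 11.53 in DNCB and 11.68 and 12.18 in sham, and the 3′ end of Gapdh gave 2.10 to 7.35 times the signal of its 5′ end, a ratio that is higher in degraded RNA and that was highest on DNCB array 3. The sham arrays stood apart from each other, with a mean log2 signal of 9.60 on sham array 1 and 6.69 on sham array 2 over 15 hair follicle genes. The 10 basal and suprabasal epidermal genes, which mark the labelled tissue, had mean log2 signals of 9.50 to 11.10 on the 8 arrays. The array medians were 4.07 to 4.22, and log2 differences of signals near them are approximate. In whole skin, fewer cells of a type and less RNA per cell cannot be told apart.

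The first comparison asked how the connexins stood in DNCB skin against sham skin. The adjoining genes Gjb2 and Gjb6 were the connexins with the highest signals relative to sham, with log2 differences of 2.90 and 3.43, equal to 7.46-fold and 10.8-fold. Their arrays did not overlap between the groups, yet neither passed the threshold of 0.05 over all probe sets. Gjb5 had a negative difference and the 6 probe sets of Gja1 had differences from -0.11 to 0.49, and none of these passed. In all, 0 of 9 connexin probe sets passed by limma, against 0.956% of all probe sets (236 of 24675), and 2 of 9 had an unadjusted p under 0.05, against 15.3% of all.

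Gjb2, which encodes connexin 26, had log2 signals of 10.89, 11.81 and 10.76 on the DNCB arrays, against 9.27 and 7.24 on the sham arrays. All DNCB arrays lay above both sham arrays, and the lowest DNCB array exceeded the higher sham array by 1.49. The sham arrays differed from each other by 2.03, so the spread in sham was large beside the difference. The means were 11.15 ± 0.57 (SD, n = 3) in DNCB and 8.25 ± 1.43 (SD, n = 2) in sham, and the log2 difference was 2.90 (SE 0.58, 95% interval 1.60 to 4.20, limma unadjusted p = 0.000676, adjusted p = 0.0571).

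Gjb6, which encodes connexin 30, had log2 signals of 8.31, 9.19 and 7.90 on the DNCB arrays, against 6.18 and 3.88 on the sham arrays. The groups again did not overlap, and sham array 2 lay below its array median of 4.22, which makes the size of the difference approximate. The means were 8.47 ± 0.66 (SD, n = 3) in DNCB and 5.03 ± 1.63 (SD, n = 2) in sham, and the log2 difference was 3.43 (SE 0.67, 95% interval 1.92 to 4.94, limma unadjusted p = 0.000582, adjusted p = 0.0536). Connexin 30 pairs with connexin 26 in mixed channels in the inner ear.

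DNCB arrays lay wholly above sham for 2 of the 9 connexin probe sets and wholly below for 0, against 21% and 12.6% of all probe sets. The 2 of 9 is near the share of all probe sets, but 6 of the 9 measure Gja1. By gene, on the brightest probe set of each, 2 of 4 lay wholly above and 0 wholly below. The 4 genes were not tested as a set. With each gene represented by its brightest probe set, the limma adjusted p was 0.0471 for Gjb2 and 0.0439 for Gjb6. Both genes passed in 3 of 11 other settings and in 1 of 8 fits without an array, so the call lay at the threshold. Without sham array 2 the differences were 1.89 (adjusted p = 0.293) for Gjb2 and 2.28 (adjusted p = 0.296) for Gjb6. Fitted with spike-in signal as a covariate, they were 1.95 (adjusted p = 0.244) and 2.36 (adjusted p = 0.233). The difference kept its sign in every one of these fits.

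**Figure D1:**
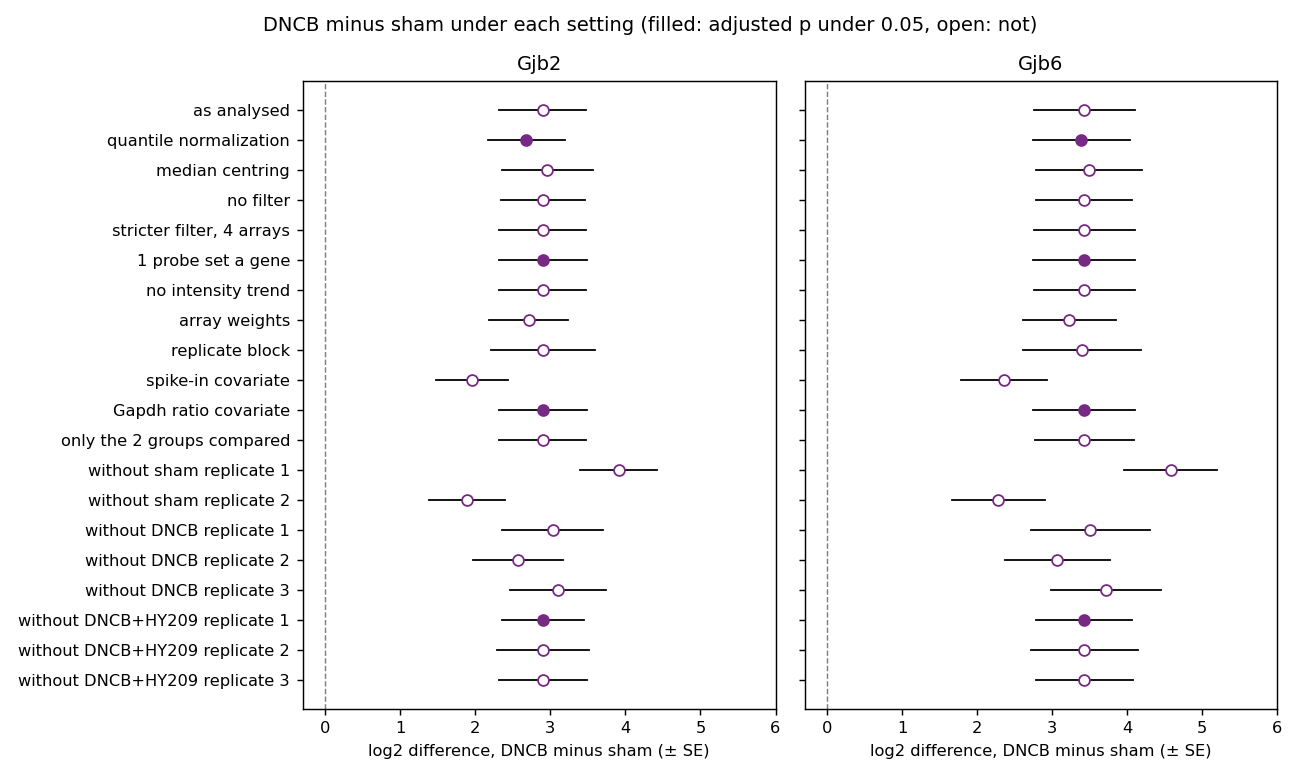
Log2 difference of Gjb2 (left) and Gjb6 (right) between DNCB and sham skin (x axis, point with its standard error) under each processing setting or with an array left out (y axis), filled where the adjusted p is under 0.05. Every point lies above 0, from 1.89 to 3.91 for Gjb2 and from 2.28 to 4.58 for Gjb6, and most are open.

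Gjb5, which encodes connexin 31.1, had log2 signals of 5.12, 6.67 and 4.72 on the DNCB arrays, against 6.87 and 5.92 on the sham arrays. DNCB arrays 1 and 3 lay below both sham arrays, whereas DNCB array 2 lay between them, so the groups overlapped. The log2 difference was -0.89 (SE 0.63, 95% interval -2.30 to 0.52, limma adjusted p = 0.479). The interval thus holds both a decrease and a small increase. With the spike-in covariate the Gjb5 difference was -2.05 (SE 0.40, limma adjusted p = 0.134). It was -1.47 and -0.50 when DNCB arrays 2 and 3 were left out in turn, and -0.41 and -1.37 when sham arrays 1 and 2 were, so its size depended on single arrays while its sign was negative in all fits run.

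Gja1, which encodes connexin 43, did not separate the groups on any of its probe sets. On 1437992_x_at, its brightest, the log2 signals were 11.68, 11.95 and 12.35 on the DNCB arrays, against 12.37 and 11.45 on the sham arrays. Sham array 1 was the highest and sham array 2 the lowest of the 8 arrays, and the DNCB arrays fell between them. The log2 difference was 0.08 (SE 0.29, 95% interval -0.56 to 0.72, limma adjusted p = 0.894).

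The other 5 probe sets of Gja1 gave differences from -0.11 to 0.49, with adjusted p from 0.615 to 0.971 by limma. The highest was 1415801_at, whose log2 signals were 5.53, 7.22 and 6.47 on the DNCB arrays, against 6.53 and 5.31 on the sham arrays. On this probe set DNCB array 2 was the highest of the 8 arrays and sham array 2 the lowest. Sham arrays were both the highest and the lowest of the 8 on 4 of the 6 Gja1 probe sets, and sham array 1 exceeded sham array 2 on all 6. Of the 6, 4 carry the suffix x_at, which marks probes that may also match other transcripts. The other 2 had wider intervals, of -0.91 to 1.06 around a difference of 0.07 for 1415800_at and of -0.63 to 1.60 around 0.49 for 1415801_at, so their arrays bound a change of Gja1 less closely.

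**Figure D2:**
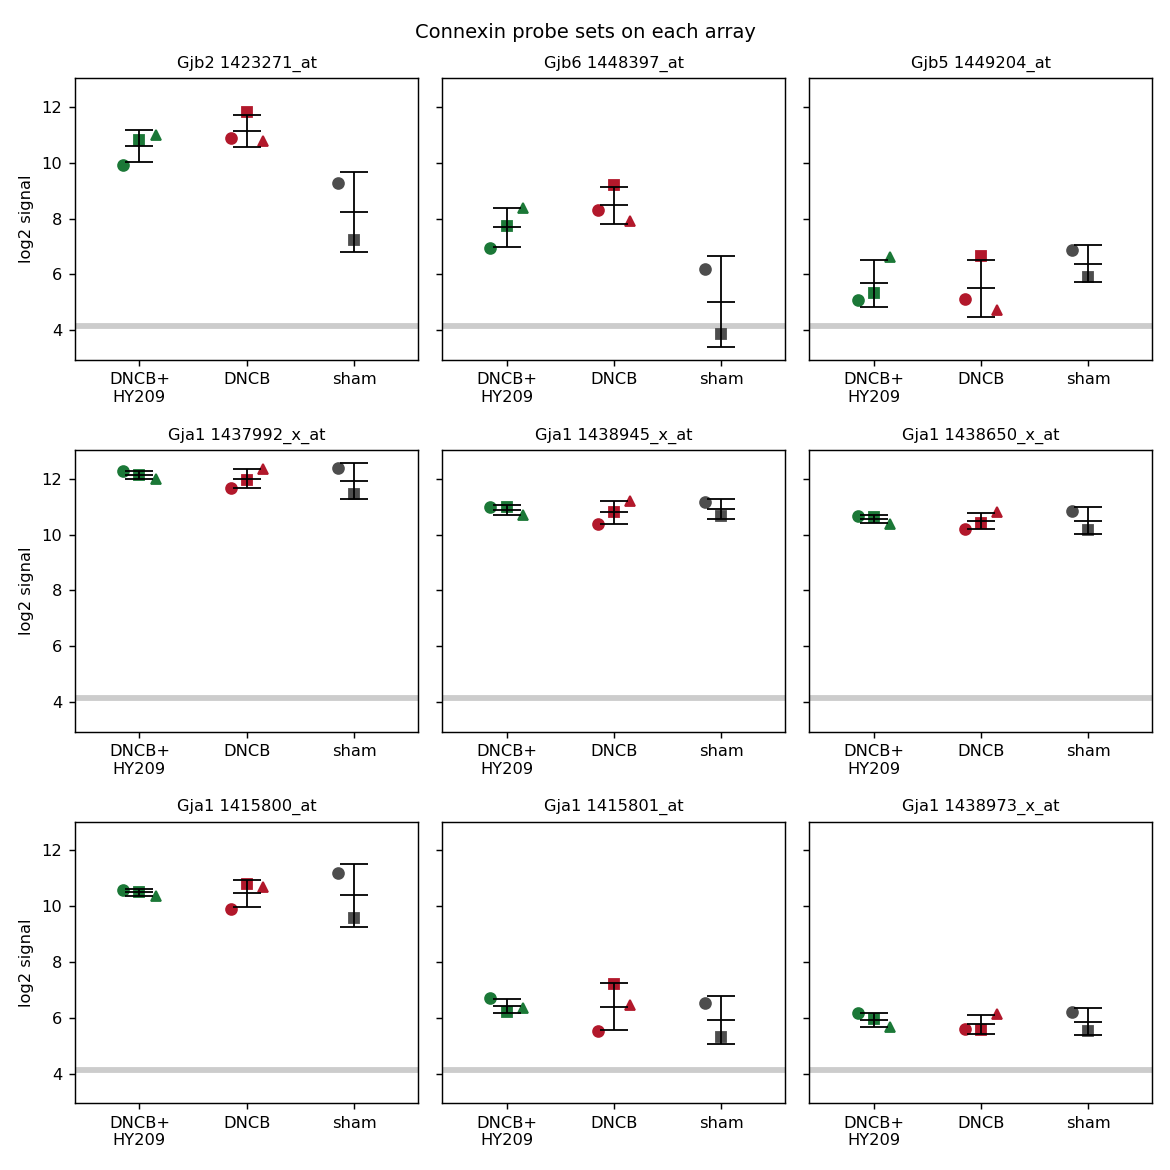
Log2 signal (y axis) of each connexin probe set on each array, by group (x axis), with symbols for replicate 1 (circle), 2 (square) and 3 (triangle), a bar and whiskers for mean and SD, and a grey band for the array medians of 4.07 to 4.22. Gjb2 and Gjb6 lie higher on all 6 DNCB-treated arrays than on both sham arrays, while Gja1 and Gjb5 overlap.

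The second comparison asked whether HY209 gel changed connexin transcripts in DNCB skin. No connexin probe set passed, and all 9 overlapped between the groups, whereas 4.87% of all probe sets did not overlap. Gjb2 and Gjb6 had differences of -0.56 and -0.79, Gjb5 one of 0.18 and the 6 Gja1 probe sets ones of 0.03 to 0.17. Limma called 0 of 24675 probe sets in this comparison (0%), with 307 (1.24%) at an unadjusted p under 0.05 and 0 of these among the connexins. The median difference of the connexin probe sets, 6 of them for Gja1, was 0.07, against 0.03 over all probe sets. Over the 4 genes, each by its brightest probe set, the median was -0.21.

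Gjb2 had log2 signals of 9.93, 10.83 and 11.00 on the DNCB+HY209 arrays, against 10.89, 11.81 and 10.76 on the DNCB arrays. DNCB+HY209 array 1 was the lowest of the 6 and DNCB array 2 the highest, and the other 4 lay within 10.76 to 11.00. The log2 difference was -0.56 (SE 0.52, 95% interval -1.73 to 0.60, limma adjusted p = 1).

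Gjb6 had log2 signals of 6.94, 7.73 and 8.37 on the DNCB+HY209 arrays, against 8.31, 9.19 and 7.90 on the DNCB arrays. DNCB+HY209 array 1 was again the lowest and DNCB array 2 again the highest. The log2 difference was -0.79 (SE 0.60, 95% interval -2.14 to 0.57, limma adjusted p = 1). For both genes the interval holds 0 and also sizeable decreases, so an effect of HY209 was not bounded closely. The SE pools the spread within all groups, sham among them. With only the 2 groups compared the SE was 0.36 for Gjb2 and 0.44 for Gjb6, with the same differences. Without DNCB+HY209 array 1 the differences were -0.23 for Gjb2 and -0.42 for Gjb6, and without DNCB array 2 they were -0.24 and -0.43. With array weights they were -0.17 and -0.52. No sign turned, but DNCB+HY209 array 1 and DNCB array 2, the lowest and the highest of the 6, carried much of both differences. Other omissions made them more negative. Without DNCB+HY209 array 3 they were -0.77 for Gjb2 and -1.13 for Gjb6, and without DNCB array 3 they were -0.76 and -1.07.

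Gjb5 had log2 signals of 5.09, 5.32 and 6.64 on the DNCB+HY209 arrays, against 5.12, 6.67 and 4.72 on the DNCB arrays. In both groups 1 array stood well above the other 2. The log2 difference was 0.18 (SE 0.56, 95% interval -1.09 to 1.44, limma adjusted p = 1), and with the Gapdh ratio as a covariate it was -0.11.

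Gja1 on 1437992_x_at had log2 signals of 12.28, 12.14 and 11.97 on the DNCB+HY209 arrays, against 11.68, 11.95 and 12.35 on the DNCB arrays. The DNCB+HY209 arrays lay within the range of the DNCB arrays and closer together, with an SD of 0.16 against 0.34. The log2 difference was 0.14 (SE 0.26, 95% interval -0.44 to 0.71, limma adjusted p = 1). On 1415800_at the SD was 0.12 in DNCB+HY209 and 0.48 in DNCB, with log2 signals of 10.60, 10.52 and 10.37 against 9.91, 10.79 and 10.68.

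The third comparison set DNCB+HY209 skin against sham skin, with the same sham arrays as the first. The order of the group means was the same for Gjb2 and Gjb6, with DNCB highest, DNCB+HY209 next and sham lowest, and the first 2 of these groups overlapped. Gjb2 averaged 10.59 ± 0.58 (SD, n = 3) in DNCB+HY209 and 8.25 ± 1.43 (SD, n = 2) in sham, a log2 difference of 2.34 (SE 0.58, 95% interval 1.03 to 3.64, limma adjusted p = 0.140). Gjb6 averaged 7.68 ± 0.71 (SD, n = 3) in DNCB+HY209 and 5.03 ± 1.63 (SD, n = 2) in sham, a log2 difference of 2.65 (SE 0.67, 95% interval 1.14 to 4.16, limma adjusted p = 0.144).

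For both genes all DNCB+HY209 arrays lay above both sham arrays, by at least 0.66 for Gjb2 and 0.76 for Gjb6. This held for 2 of 9 connexin probe sets, against 26.7% of all probe sets, and 0 of 9 lay wholly below sham, against 14.2%. By gene, on the brightest probe set of each, it held for 2 of 4, and 0 lay wholly below. Of the 9, 2 had an unadjusted p under 0.05, against 18.6% of all. No connexin probe set passed, against 0.267% of all probe sets (66 of 24675). With array weights both passed, with adjusted p of 0.0251 for Gjb2 and 0.0303 for Gjb6. Without sham array 2 the differences were 1.32 for Gjb2 and 1.50 for Gjb6, and with the spike-in covariate they were 1.38 and 1.56. Gjb5 differed by -0.71 (adjusted p = 0.526) and the Gja1 probe sets by -0.02 to 0.52 (adjusted p 0.561 to 0.968), all with overlap. With the spike-in covariate the Gjb5 difference was -1.90 (SE 0.40, limma adjusted p = 0.251). It was -0.24 without sham array 1, -0.42 without DNCB+HY209 array 1 and -1.19 without either sham array 2 or DNCB+HY209 array 3.

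**Figure D3:**
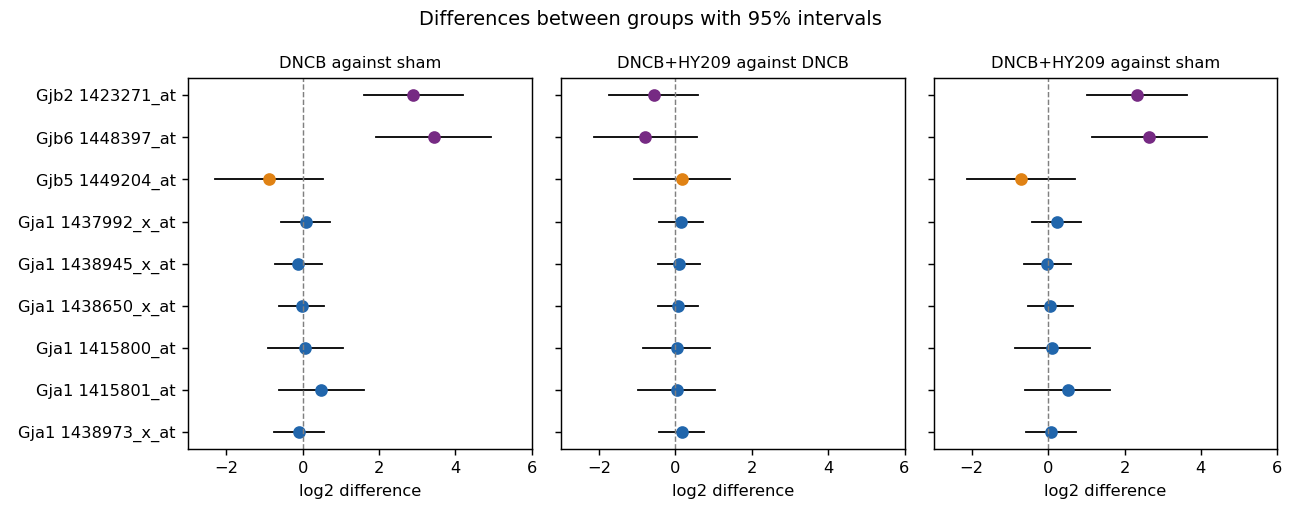
Log2 difference (x axis, point with 95% interval) of each connexin probe set (y axis) in DNCB against sham, DNCB+HY209 against DNCB, and DNCB+HY209 against sham. Only the intervals of Gjb2 and Gjb6 against sham lie wholly above 0 before adjustment for the number of probe sets.

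Within each array the members can be set against each other as a change relative to Gja1. Taken as deviations from the mean over the 8 arrays, the log2 ratio of Gjb2 to Gja1 was -0.54, 0.50 and 0.84 on the DNCB+HY209 arrays, 1.02, 1.67 and 0.21 on the DNCB arrays and -1.30 and -2.41 on the sham arrays. For Gjb6 to Gja1 it was -0.62, 0.30 and 1.11 in DNCB+HY209, 1.34, 1.95 and 0.26 in DNCB and -1.48 and -2.86 in sham. Both ratios were higher on all 6 DNCB-treated arrays than on the sham arrays. The ratio of Gjb5 to Gja1 overlapped between the groups, with -0.96 to 0.90 in DNCB+HY209, -1.40 to 0.96 in DNCB and 0.73 and 0.70 in sham. No test of these ratios was made.

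Gjb2 and Gjb6 followed each other closely. Among 12419 other genes, Gjb6 had the pattern most like that of Gjb2 over the 8 arrays (Pearson r = 0.996, and 0.985 for deviations from the group means), and Gjb2 the pattern most like that of Gjb6. The ratio of Gjb2 to Gjb6, again as a deviation from its mean, ranged from -0.32 to 0.45. Next for Gjb2 came Tgm1, the transglutaminase that crosslinks the cornified envelope (r = 0.991, within groups 0.995), and Apeh, an acylpeptide hydrolase (r = 0.990, within groups 0.971). For Gjb6 they were Apeh (r = 0.991, within groups 0.985) and Endou (r = 0.988, within groups 0.980). These arrays share differences in spike-in level, and such r values describe 8 points only.

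Gjb5 followed neither of them across all arrays, with r = -0.0546 to Gjb2, but within groups r was 0.774 to Gjb2 and 0.828 to Gjb6. DNCB array 2 and DNCB+HY209 array 3 were the highest arrays of their groups for all 3 genes, and they had the lowest spike-in level of their groups, 10.10 and 10.65. The genes most like Gjb5 were Cd6 (r = 0.961), Fbxo25 (r = 0.952) and Wdr13 (r = 0.940). The genes most like Gja1 were Hnrnpc (r = 0.965), Pus7 (r = 0.965) and Zdhhc21 (r = 0.962). The probe sets of Gja1 had r of 0.386 to 0.973 with each other, the lowest between 1415801_at and 1438973_x_at.

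Marker lists moved with these patterns. Over 6 genes of hyperproliferative epidermis the mean log2 signal was 10.17 to 11.72 in DNCB+HY209, 10.86 to 12.08 in DNCB and 6.47 and 6.72 in sham. Of these 6 genes 4 rose in DNCB against sham, where 0.956% of all probe sets passed in either direction. Among the 4 were the wound keratins Krt6b (8.70, SE 0.54, limma adjusted p = 0.000522) and Krt16 (7.65, SE 0.51, limma adjusted p = 0.000522). Krt17 (1.86, SE 0.44, limma adjusted p = 0.102) and Ivl (0.46, SE 0.73, limma adjusted p = 0.753) did not pass. On the DNCB-treated arrays the lowest array in this list, DNCB+HY209 array 1, was also the lowest in Gjb2 and Gjb6, and the highest, DNCB array 2, was also the highest. The sham arrays, alike in this list, differed by 2.03 in Gjb2. Sham array 2, the lower in Gjb2, had the higher spike-in level, 12.18 against 11.68. Over the 8 arrays Gjb2 and Gjb6 were mostly lower where spike-in level was higher. As exceptions, DNCB array 1 exceeded DNCB+HY209 array 2 in spike-in level, Gjb2 and Gjb6. DNCB array 3 exceeded DNCB+HY209 array 2 in spike-in level (11.53 against 10.77) and Gjb6 (7.90 against 7.73). The cause of this order, and the part of the 6 listed genes in the connexin values, was not tested.

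For Gja1 the 3 arrays with the highest signal on 1437992_x_at, sham array 1, DNCB array 3 and DNCB+HY209 array 1, were also the 3 with the highest mean over 15 hair follicle genes. That mean was 8.43 on DNCB+HY209 array 1, 7.36 on DNCB array 3 and 9.60 on sham array 1, against 5.25 to 6.69 on the others. The lowest Gja1 array, sham array 2, came next after these 3 in the list, at 6.69. The same 3 arrays were highest over 4 melanocyte genes, with means of 9.51 on DNCB+HY209 array 1, 7.58 on DNCB array 3 and 9.26 on sham array 1, against 5.52 to 7.13 on the others. These 3 arrays also had the highest ratios of 3′ to 5′ Gapdh signal. The ratios were 3.24 on DNCB+HY209 array 1, 7.35 on DNCB array 3 and 4.46 on sham array 1. On the others they were 2.10 to 2.81. The means over 7 fibroblast genes were 8.03 to 8.41 in DNCB+HY209, 8.60 to 9.77 in DNCB and 8.29 and 8.94 in sham. Over 5 endothelial genes they were 4.87 to 5.44 in DNCB+HY209, 5.50 to 6.29 in DNCB and 4.40 and 4.68 in sham. Over 7 leukocyte genes they were 5.33 to 6.50 in DNCB+HY209, 5.90 to 6.79 in DNCB and 3.94 and 4.20 in sham. Over 3 adipocyte genes they were 3.12 to 3.84 in DNCB+HY209, 3.17 to 4.54 in DNCB and 5.62 and 4.90 in sham. The part of these cell types and of RNA quality in the connexin values was not tested.

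**Figure D4:**
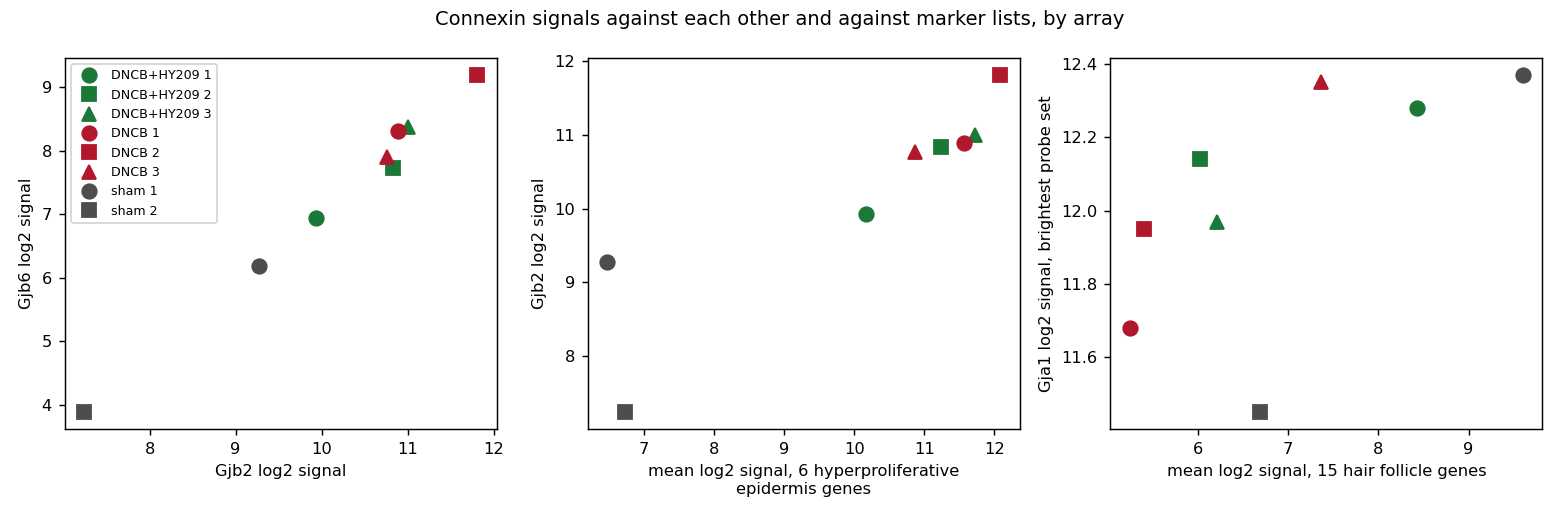
Each point is 1 array, coloured by group and shaped by replicate. Left, Gjb6 against Gjb2 log2 signal, which fall on a line (r = 0.996). Middle, Gjb2 against the mean log2 signal of 6 hyperproliferative epidermis genes. Right, Gja1 against the mean log2 signal of 15 hair follicle genes, where sham array 1 is highest in both and sham array 2 is lowest in Gja1.

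Of the other connexins and the related pannexin channel genes, 13 of 19 had a named probe set, and 4 passed the filter. None of the 4 passed in any comparison (0 rose, 0 fell, 4 did not pass in each), and their median log2 difference was 0.62 in DNCB against sham, against 0.11 over all probe sets. Gja4, which encodes a connexin of endothelium, had log2 signals of 4.60, 4.31 and 4.86 in DNCB+HY209, 5.25, 5.03 and 5.09 in DNCB and 4.33 and 4.09 in sham. Its DNCB arrays lay above all others, with a log2 difference of 0.91 (SE 0.21, limma adjusted p = 0.0990) to sham and of -0.53 (SE 0.19, limma adjusted p = 1) for DNCB+HY209 against DNCB, at signals near the array medians.

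Of 22 symbols listed for connexin partners or regulators, which include both the old and the new symbol of Ccn3, 17 were tested. They include the scaffold gene Tjp1 that binds connexin 43 and the kinase gene Src that phosphorylates it. Against sham and against DNCB, 0 rose, 0 fell and 17 did not pass in each of the 3 comparisons. Their median log2 difference was 0.00 in DNCB against sham, 0.07 in DNCB+HY209 against DNCB and 0.01 in DNCB+HY209 against sham, against 0.11, 0.03 and 0.15 over all probe sets. Src had a difference of 0.81 (SE 0.24, limma adjusted p = 0.175) in DNCB against sham.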

How the data were processed

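The authors deposited 1 value per probe set and array, taken here as log2 signal because values lay between 1.59 and 14.52. Tools in the submitters' processing notes are MAS5 and Affymetrix Expression Console, with no versions. No source used here states how arrays were scaled to each other. Per the labels the array was the 430A, but the 45101 probe sets are those of its larger form, and 64 of them were controls. Symbols were those of the GEO platform annotation.

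A probe set was kept if above its array median on at least 2 of 8 arrays. Differences were tested with limma 3.58.1 in R 4.3.3 (lmFit, eBayes with an intensity trend, all 8 arrays in 1 fit, two-sided), with Benjamini-Hochberg adjustment over 24675 probe sets and a threshold of 0.05. SE is the moderated standard error. The script was tested on simulated data. The members, lists and alternatives were chosen with earlier results of these data known. Named genes were all member probe sets, members of the connexin and partner lists past the threshold, and the 3 genes of highest Pearson r to each member's brightest probe set. Other genes, such as Gja4, Src and the wound keratins, were named after their values were seen. The alternatives were 2 scalings, 2 filters, 1 probe set a gene, 2 variance models, the 2 groups alone, the replicate block, 2 covariates and each array left out. Promoter sequences are from RefSeq, and all 4 members matched. Precision is limited by the small number of arrays.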

Additional observations from a re-analysis of the deposited data

How the results depend on the processing

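For DNCB against sham 236 probe sets passed, and 366 did after quantile normalization, 142 after median centring, 23 with the spike-in covariate and 519 with the Gapdh ratio covariate. Without each array in turn it was 14 to 432, namely 14 when either sham array was left out, 41 and 51 on leaving out DNCB arrays 1 and 2, and 432 and 62 on leaving out DNCB+HY209 arrays 1 and 2. The connexin count of 0 was 2 (Gjb2 and Gjb6) after quantile normalization, with 1 probe set a gene and with the Gapdh ratio covariate, and 0 to 2 without each array, with 2 without DNCB+HY209 array 1. For DNCB+HY209 against sham 66 passed, and 141 did after quantile normalization, 32 after median centring, 1125 with array weights, 9 with the spike-in covariate, 24 with only the 2 groups compared and 6 to 354 without each array, with 10 without sham array 1 or 2, 27 and 30 without DNCB arrays 1 and 3, and 354, 6 and 11 without DNCB+HY209 arrays 1, 2 and 3. The connexin count of 0 was 2 with array weights and 0 without each array. DNCB+HY209 against DNCB had 0 calls by limma in each setting, with 307 probe sets at an unadjusted p under 0.05 as analysed. Same-numbered arrays of DNCB+HY209 and DNCB had correlations of deviations of 0.179, 0.236 and -0.620. Deviations from the mean of a small group constrain each other, so these values cannot show whether the numbers pair the samples. With the replicate block 20 probe sets passed in DNCB against sham and 8 in DNCB+HY209 against sham, and no connexin call changed.

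Gjb2 and Gjb6 kept their sign in each setting. Signs turned for differences of Gja1 and Gjb5, none of them called, among them those of Gja1 1415801_at, 0.49 for DNCB and 0.52 for DNCB+HY209 against sham. For DNCB against sham Gja1 1438650_x_at was 0.04 after median centring, 1415800_at was -0.07 after quantile normalization, -0.06 with array weights and -0.27 with the spike-in covariate, and with that covariate 1415801_at was -0.06 and 1438973_x_at 0.07. For DNCB+HY209 against DNCB Gjb5 was -0.11 with the Gapdh ratio. For DNCB+HY209 against sham Gja1 1438945_x_at was 0.05 after median centring, 0.04 with array weights and 0.12 with the Gapdh ratio. After quantile normalization 1438650_x_at was -0.10, 1415800_at -0.06 and 1438973_x_at -0.13, and with the spike-in covariate 1415800_at was -0.24 and 1415801_at -0.04. The causes were not tested. Leaving out each array in turn also turned signs, with adjusted p no lower than 0.216 for these. In DNCB against sham the differences then ran from -0.73 to 0.88 for 1415800_at, -0.12 to 1.10 for 1415801_at, -0.38 to 0.54 for 1437992_x_at, -0.36 to 0.32 for 1438650_x_at, -0.36 to 0.14 for 1438945_x_at and -0.44 to 0.25 for 1438973_x_at. In DNCB+HY209 against DNCB the differences then ran from -0.24 to 0.20 for 1415800_at, -0.41 to 0.44 for 1415801_at, -0.02 to 0.31 for 1437992_x_at, -0.06 to 0.23 for 1438650_x_at, -0.12 to 0.30 for 1438945_x_at and -0.30 to 0.76 for Gjb5 1449204_at. In DNCB+HY209 against sham the differences then ran from -0.70 to 0.91 for 1415800_at, -0.09 to 1.13 for 1415801_at, -0.25 to 0.68 for 1437992_x_at, -0.29 to 0.39 for 1438650_x_at, -0.27 to 0.23 for 1438945_x_at and -0.27 to 0.41 for 1438973_x_at.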
